A study of Mus musculus with 2 samples.

Results

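Kcnk9, Dlk1, Ppp1r9a and Mkrn3 are imprinted genes that were assigned peaks of macroH2A1, a variant of histone H2A, in embryonic stem cells of the mouse. They are the genes of these names in the symbol entries of the authors' deposited peak list, and each had 1 peak, so that they account for 4 of the 2560 listed peaks and lie on 4 different chromosomes. The genes were chosen by the presence of a peak assigned to them, so that the presence, distance, class and width of these peaks are given as a description and without a test. Chromatin immunoprecipitation and sequencing was done in untreated cells of E14, an established line of mouse embryonic stem cells, grown on gelatine with leukemia inhibitory factor. There was 1 library made with an antibody raised against part of mouse macroH2A1 and 1 library made with non-specific IgG, and values of the IgG library were not analysed here. With 1 library per antibody and 1 cell line there is no replicate error, and the list holds no read count or score per peak, so that the depth behind each peak is unknown.

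MacroH2A1 replaces the ordinary histone H2A in some nucleosomes and carries a large globular domain beyond its histone part. It is known from the inactive X chromosome and from silent, developmentally regulated genes. Imprinted genes are expressed mainly from the copy inherited from 1 parent, usually in clusters whose members share a control region with a methylation mark set in the germline. Kcnk9 and Ppp1r9a are known as genes expressed from the maternal copy in some tissues, and Dlk1 and Mkrn3 as genes expressed from the paternal copy. The deposited list does not separate the parental copies, so that a peak cannot be given to either of them.

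None of the 4 peaks covered the start of its gene, and of the 1669 peaks assigned to a gene with a symbol 0.959% did. The sequence just before the gene start is shown for the genes for which RefSeq's promoter table (build GRCm38.p6) held a window. Matching by symbol found windows for 3 of the 4 genes, and Kcnk9 had none in the table. The windows are the 250 bases before the annotated start, 5′ to 3′ on the gene's strand, with CpG dinucleotides in capitals. The build is later than that of the peaks, mm9, and its starts need not be those used by the authors. All distances below were measured from the gene starts in the authors' list. The sequences are those of Dlk1 (chr12:109452573-109452822, plus strand), Mkrn3 (chr7:62420154-62420403, minus strand) and the start of Ppp1r9a that is listed further 3′ (chr6:4903061-4903310, plus strand).
Dlk1: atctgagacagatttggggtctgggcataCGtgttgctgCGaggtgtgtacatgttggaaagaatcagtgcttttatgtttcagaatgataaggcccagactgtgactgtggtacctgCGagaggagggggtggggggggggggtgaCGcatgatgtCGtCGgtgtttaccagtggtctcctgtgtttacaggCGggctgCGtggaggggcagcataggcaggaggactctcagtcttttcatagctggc
Mkrn3: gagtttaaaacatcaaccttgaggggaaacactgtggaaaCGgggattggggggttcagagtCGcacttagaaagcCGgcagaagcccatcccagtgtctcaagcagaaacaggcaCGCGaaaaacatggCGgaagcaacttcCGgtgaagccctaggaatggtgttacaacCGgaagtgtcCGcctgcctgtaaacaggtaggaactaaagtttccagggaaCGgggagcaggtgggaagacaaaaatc
Ppp1r9a: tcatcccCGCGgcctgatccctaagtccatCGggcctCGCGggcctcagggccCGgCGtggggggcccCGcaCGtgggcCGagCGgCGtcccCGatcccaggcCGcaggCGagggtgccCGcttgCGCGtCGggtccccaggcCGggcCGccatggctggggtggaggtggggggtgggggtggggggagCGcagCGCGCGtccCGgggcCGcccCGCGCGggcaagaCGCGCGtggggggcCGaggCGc

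The windows differed in CpG content. The Ppp1r9a window held 35 CpGs and a GC content of 81.2%, and 97.0% of the 32841 windows in the table held fewer CpGs. Its other window, from a start listed further 5′, held 8. Dlk1 had 8 CpGs and Mkrn3 had 10, beside a median of 6 over all windows (interquartile range 2 to 16). The hexamer TGCCGC, the core of the motif of ZFP57, a zinc finger protein known to bind methylated imprinting control regions, was searched on both strands. It was in 0 of the 4 windows of these genes and in 8.68% of all windows, which says only that these letters are not in these stretches.

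Kcnk9 encodes a tandem-pore potassium channel subunit that sets the resting potential of neurons, and it had both the widest of the 4 peaks and the one closest to a gene start. The peak lay on chromosome 15 at 72369750 to 72372250 (mm9), inside the gene (ENSMUSG00000036760, 72342549 to 72376709, minus strand). The gap, measured here and below from the start of the gene to the closest edge of the peak, was 4.46 kb, or 13.1% of the 34.2 kb gene. Whether the peak is exonic or intronic was not analysed here, since no mm9 exon annotation was used. Its width of 2501 bp put 97.5% of all peaks below it, and 53 were wider. Among the 349 peaks inside a gene with a symbol, 10 were wider than this one, beside a median of 1551 bp, and 70 lay closer to the start, beside a median gap of 20.4 kb.

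Dlk1 encodes a membrane protein with EGF-like repeats, related to Notch ligands, that is known for holding back the differentiation of fat precursor cells. Its peak lay upstream of the gene, on chromosome 12 at 110682300 to 110683950, and the gene (ENSMUSG00000040856) runs from 110691059 to 110698901 on the plus strand. The gap from the peak to the gene start was 7.11 kb. Of the 883 upstream peaks of genes with a symbol, 201 were closer and 681 farther, beside a median gap of 23.0 kb. The width of 1651 bp was close to the middle of the list, with 57.5% of peaks narrower and 987 wider.

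Ppp1r9a encodes neurabin, an actin-binding protein of synapses that recruits protein phosphatase 1. Its peak was inside the gene and far from both of its ends, on chromosome 6 at 4995450 to 4997000. The gene (ENSMUSG00000032827, 4853320 to 5115661, plus strand) is 262 kb long, so that the peak began 142 kb past the start, at 54.2% of the gene's length, and lay 119 kb from the gene end. Among the 349 peaks inside a gene with a symbol, 307 were closer to the start and 41 were farther. The width of 1551 bp was the median of the whole list.

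Mkrn3 encodes a ring finger protein with zinc fingers that acts as a ubiquitin ligase and is known as a brake on the onset of puberty. Its peak lay past the end of the gene, on chromosome 7 at 69549950 to 69551000, and the gene (ENSMUSG00000070527, 69563293 to 69564927, minus strand) is short, at 1.64 kb. The gap was 12.3 kb from the gene end and 13.9 kb from the gene start. Of the 410 downstream peaks of genes with a symbol, 64 were closer to the start and 345 farther, beside a median gap of 59.4 kb. At 1051 bp the peak had the smallest width in the list, which it shared with 5.78% of the peaks (148 of 2560). About as many peaks, 143, had the median width of 1551 bp. Whether narrower peaks were left out is not given in the sources used here, so that this width may be a limit of the list. Magel2 is the next protein-coding gene on the side of this peak and Peg12 the next on the other, in the gene order of the RefSeq table (GRCm38.p6).

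**Figure D1:**
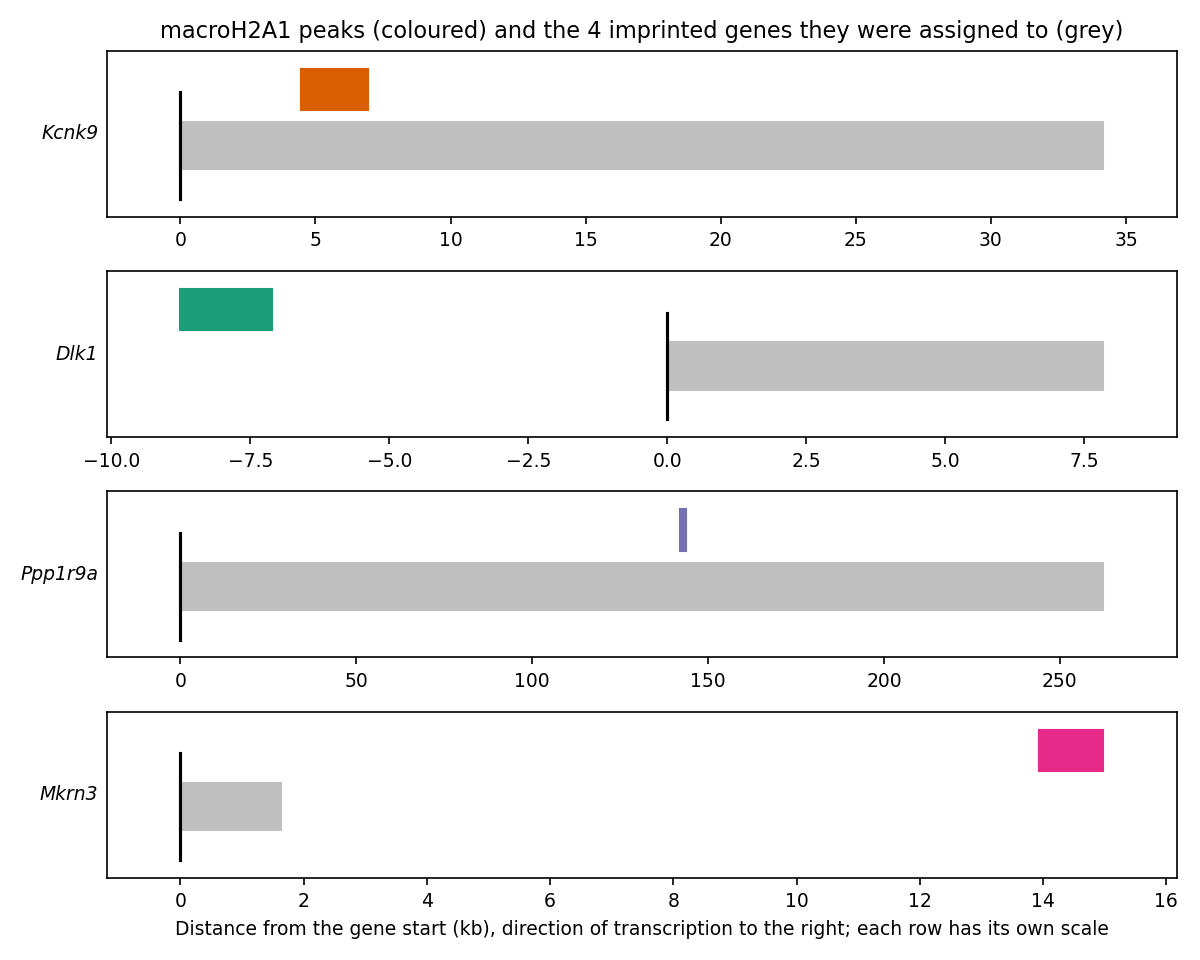
The horizontal axis gives the distance from the gene start in kb, with transcription to the right and a separate scale for each gene. Grey bars are the genes, the black line is the gene start and coloured bars are the peaks, which lie inside Kcnk9 and Ppp1r9a, 7.11 kb upstream of Dlk1 and 12.3 kb past the end of Mkrn3.

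The 4 peaks thus fell in 3 of the authors' classes. There were 2 inside their gene, 1 upstream and 1 downstream, while of all peaks of genes with a symbol 20.9% were inside, 52.9% upstream and 24.6% downstream. Counted by the midpoint, 3 lay downstream of the gene start and 1 upstream, beside 46.6% and 53.4%. Within 10 kb of the gene start were 2 of the 4 peaks, those of Kcnk9 and Dlk1, and 25.6% of the peaks of genes with a symbol. These counts rest on 4 peaks, and nothing is read from their difference to the whole list. The gaps ran from 4.46 kb to 142 kb, around a median of 27.3 kb for genes with a symbol. Each of the 4 genes had 1 peak, as did most named genes of the list, of which 14.2% had more than 1.

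**Figure D2:**
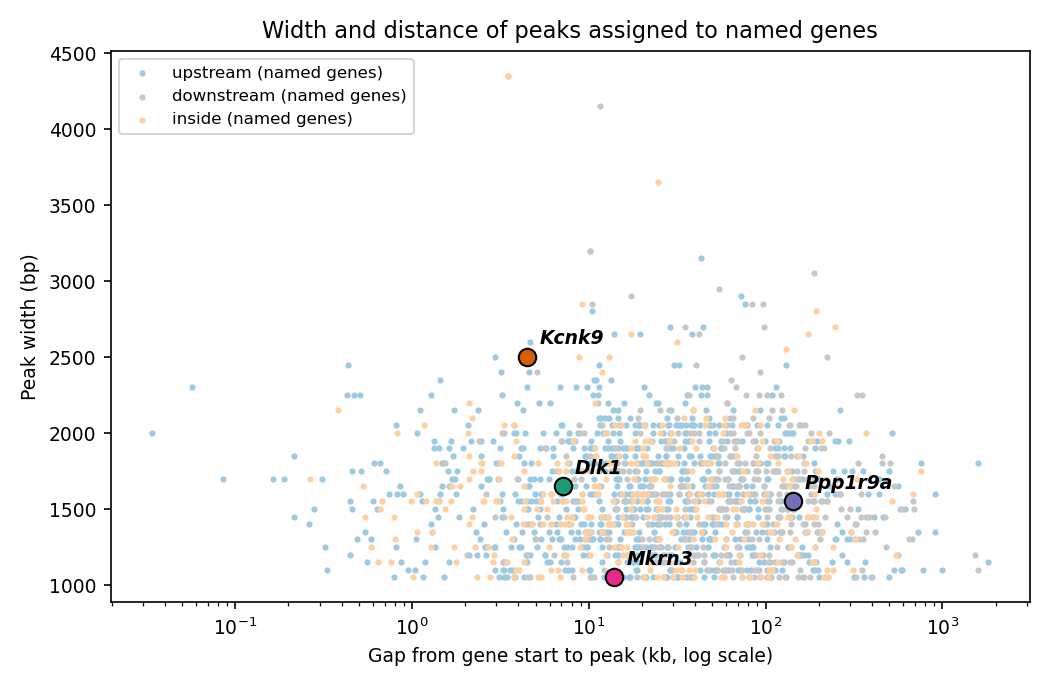
Each point is a peak assigned to a gene with a symbol, with the gap from gene start to peak in kb on a logarithmic horizontal axis and the peak width in bp on the vertical axis, coloured by the authors' class. The 4 imprinted genes are the large points, from Mkrn3 at the smallest width, 1051 bp, to Kcnk9 at 2501 bp. Peaks that cover a gene start (a gap of 0) and the rarer overlap classes are not drawn.

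Within 300 kb of the 4 peaks, counted from edge to edge, the list held 1 other peak, near that of Mkrn3. Of all 2558 distinct regions 57.9% had another region within this distance, and 1 of the 4 had. The nearest other region was 933 kb away for Kcnk9, 703 kb for Dlk1, 392 kb for Ppp1r9a and 77.7 kb for Mkrn3, beside a median of 224 kb over all regions. The values for Kcnk9 and Dlk1 were larger than those of 86.2% and 80.2% of regions, and that for Ppp1r9a larger than those of 64.4%. Mkrn3 stood on the other side, above 26.2%. Within 1 Mb each of the 4 peaks had at least 1 other, as had 87.5% of all regions: Dlk1 had 3, Ppp1r9a had 2, and Kcnk9 and Mkrn3 had 1 each. The peak just outside the window of 300 kb was the one near Ppp1r9a, which was assigned to Casd1.

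**Figure D3:**
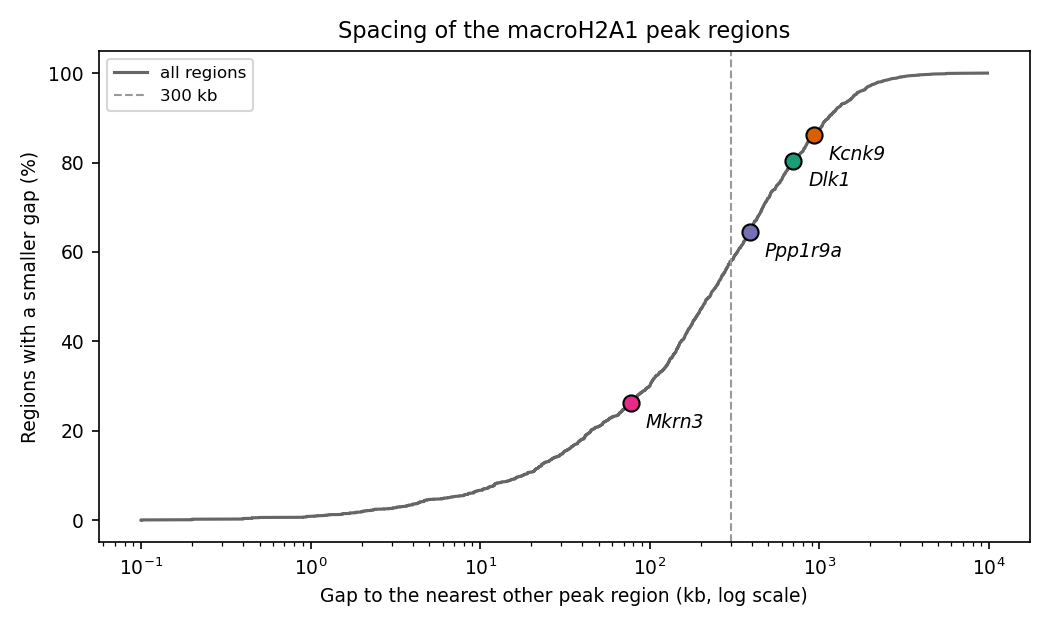
The curve gives, for each distance on the logarithmic horizontal axis in kb, the percent of peak regions whose nearest other region is closer. The dashed line marks 300 kb, with Mkrn3 (77.7 kb) to its left and Ppp1r9a, Dlk1 and Kcnk9 to its right.

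The neighbourhood of Mkrn3 is the chromosome 7 cluster of paternally expressed genes around Snrpn, whose human counterpart is the Prader-Willi region. The other peak within 300 kb lay at 69628700 to 69630700 and was 2001 bp wide. It was assigned to ENSMUSG00000072460, a gene without a symbol in the list, 454 bp long in the list's coordinates, and lay 7.10 kb past its end. On the other side of the Mkrn3 peak no peak was listed for 3.66 Mb, up to 1 at 65883200 to 65885000, which lay 28.8 kb upstream of Atp10a, a phospholipid-transporting ATPase gene at the edge of the cluster. Of the 2538 gaps between neighbouring regions in the list, 101 were longer than this one, and on chromosome 7 it was the 8th longest of 107. In the gene order of the RefSeq table, Ube3a, Snurf, Snrpn, Ndn and Magel2 stand between Atp10a and Mkrn3, and none of them was assigned a peak. Of all protein-coding genes 6.15% were assigned one, so that nothing is read from so few genes without a peak. Ube3a encodes a ubiquitin ligase expressed from the maternal copy in neurons, Snrpn a splicing protein, and Ndn (necdin) and Magel2 are relatives of the MAGE family. Peg12, next to Mkrn3 on its other side, was also without an assigned peak. The next peak of a named gene there lay 1.35 Mb from the Mkrn3 peak. It was assigned to Klf13 and lay 131 kb past the end of that gene.

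Around Dlk1 the 2 gaps beside its peak came to 1.67 Mb together, longer than for 59.2% of regions. The 3 other regions within 1 Mb compare with a median of 2. The closest of them was 703 kb away, farther than for 80.2% of regions and beside a median of 359 kb on chromosome 12. The nearest on the lower side, 970 kb away, was assigned to a gene without a symbol, as was the nearest on the upper side, at 111386750 to 111388200 and 703 kb away, beside a median gap between neighbouring regions of 651 kb on chromosome 12. The first named gene with a peak beyond it was Ppp2r5c, a phosphatase subunit gene, whose peak lay 5.47 kb upstream of its start and 995 kb from that of Dlk1. Between Dlk1 and Ppp2r5c the RefSeq gene order places Meg3, Rtl1, Rian, Mirg and Dio3, which belong to the same imprinted domain, together with 61 microRNA genes. Meg3, Rian and Mirg are non-coding RNAs of the maternal copy, Rtl1 is a retrotransposon-derived gene of the paternal copy, and Dio3 encodes an enzyme that inactivates thyroid hormone. None of these 5 genes was assigned a peak, and nothing is read from this. Of all protein-coding genes 6.15% were assigned one, a share that does not cover the non-coding Meg3, Rian and Mirg. The whole stretch between Dlk1 and Ppp2r5c held 2 regions, the one without a symbol and the one just upstream of Ppp2r5c. The place of the region without a symbol relative to Dio3 could not be given, since Dio3 has no coordinates in the list. Begain, the protein-coding neighbour on the other side of Dlk1, also had no peak.

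Kcnk9 lies beside Trappc9, whose introns hold the non-coding RNA Peg13, expressed from the paternal copy. The next peak on that side, 933 kb from that of Kcnk9 and 1601 bp wide, was assigned to Dennd3, a regulator of Rab GTPases, 36.5 kb upstream of its start. Trappc9, Peg13, Chrac1 and Ago2, which stand between Kcnk9 and Dennd3 and are known as imprinted in some tissues, had no assigned peak, nor had Ptk2, the focal adhesion kinase gene. On the other side the nearest peak was 2.21 Mb away and was assigned to a gene without a symbol. Col22a1 and Fam135b, the nearest protein-coding genes on that side, had none. A peak was assigned to 6.15% of all protein-coding genes, a share that does not cover the non-coding Peg13. Nothing is read from these few genes without a peak.

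Ppp1r9a belongs to the chromosome 6 cluster around Peg10 and Sgce. The next peaks on both sides were assigned to Casd1 and Dync1i1. Both are placed in the same cluster by the list of imprinted genes described below. That list was written with earlier results of these data known, so that nothing is read from this placing. The closest peak was 392 kb from the Ppp1r9a peak, beside a median of 357 kb to the nearest region on chromosome 6. It stood at 4602250 to 4603700 and was assigned to Casd1, a gene for an enzyme that acetylates sialic acids. It lay past the end of Casd1, 51.2 kb from its start, and 250 kb from the nearer edge of the Ppp1r9a gene, so that it falls inside a window of 300 kb when this is counted from the gene. The peak assigned to Dync1i1, a dynein chain gene, lay 591 kb away at 5588000 to 5589600, upstream of its gene by 86.0 kb. Sgce and Peg10, the paternally expressed pair of the cluster, stand between Casd1 and Ppp1r9a. Pon1, Pon3, Pon2, Asb4 and Pdk4 stand between Ppp1r9a and Dync1i1. None of the 7 was assigned a peak, beside 6.15% of all protein-coding genes that were, and nothing is read from this.

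**Figure D4:**
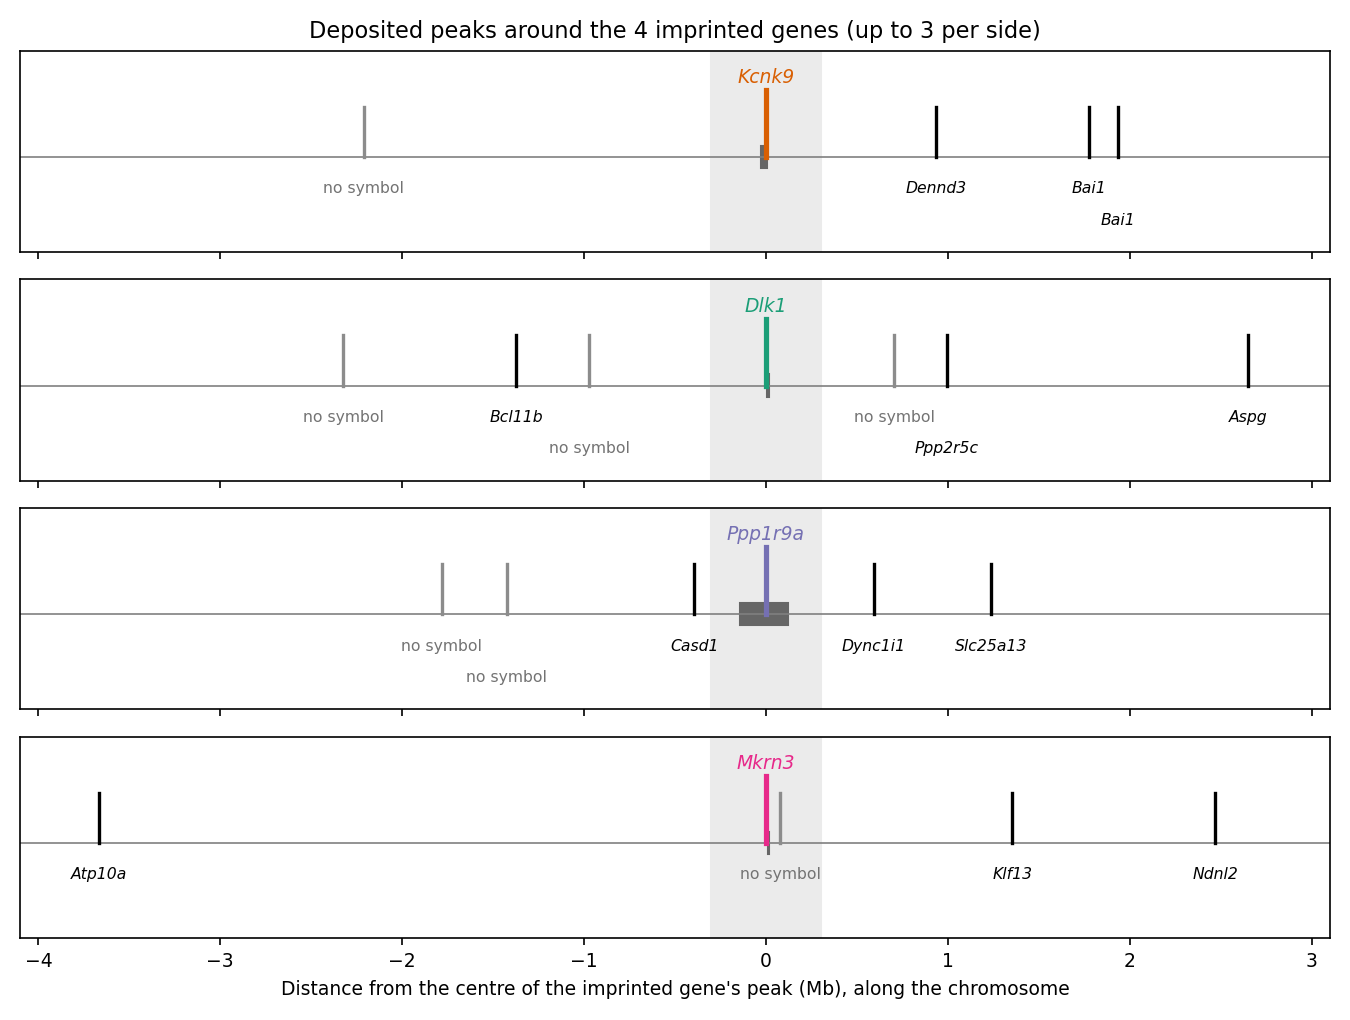
The horizontal axis gives the distance from the centre of each imprinted gene's peak in Mb, along the chromosome. Coloured lines are the peaks of the 4 genes, black lines other peaks assigned to genes with a symbol, grey lines peaks assigned to genes without one, dark bars the 4 genes, and the light band spans 300 kb to either side, in which only Mkrn3 has another peak.

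A list of 83 genes known as imprinted in some tissue, or standing in an imprinted cluster, was grouped into 24 neighbourhoods. Of these genes 81 were matched to the RefSeq table and 72 were protein-coding. A peak was assigned to 9 of the 72 (12.5%), while 6.15% of all 21631 protein-coding genes had one. The 4 genes described here are among the 9 because they have a peak, the list was written with earlier results known, and neighbouring genes share their surroundings, so that nothing is read from the difference. The other 5 were Casd1, Dync1i1 and Atp10a in the clusters described above, Cobl, an actin nucleator gene beside Grb10, and Blcap, which surrounds the imprinted gene Nnat. For several of these the imprinted state is known from few tissues. The Cobl peak lay 49.7 kb upstream of its start on chromosome 11 (12414550 to 12416250) and that of Blcap 50.0 kb upstream on chromosome 2 (157442050 to 157443900). Over the 9 genes the gap ran from 4.46 to 142 kb and the width from 1051 to 2501 bp, with Mkrn3 and Kcnk9 at the extremes of width.

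In 18 of the 24 neighbourhoods no gene was assigned a peak. Peaks were assigned to 6.15% of all protein-coding genes, and nothing is read from zeros in groups of so few genes. The largest of these was the H19 to Kcnq1 stretch on distal chromosome 7, with 0 of 14 genes, among them Igf2, the growth factor gene, H19, Kcnq1, Cdkn1c and Phlda2. There were also none in the Igf2r neighbourhood (4 genes), at Peg3 (6 genes) or at Mest (4 genes). In the clusters of the 4 genes described here, peaks were assigned to 1 of 5 genes around Kcnk9, 1 of 7 around Dlk1, 3 of 12 around Ppp1r9a and 2 of 8 around Mkrn3. Each of these 4 counts holds a gene that was chosen because it has a peak. Some of the groups include non-coding genes, while the share of 6.15% is over protein-coding genes. Each of the 2560 listed peaks has 1 assigned gene, and together they cover 2558 distinct regions. A gene without an assigned peak may thus still lie near a peak given to a neighbour. The 891 peaks given to genes with no symbol were counted for none of these genes.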

How the data were processed

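The analysis rests on the authors' deposited list of macroH2A1 peaks. Per the submitters' processing notes, reads were mapped with Bowtie to NCBIM37 (mm9). Per the file headers, the columns are those of ChIPpeakAnno, and the peak names begin with CCAT, a peak caller. For its version, threshold and control, and for read filters, nothing is given in the sources used here. The deposited values used are positions, widths and distances in bp, with no read count or score. The header names stand 1 field to the left of the values, and fields were checked by their arithmetic. Gaps to genes run from the start of the gene to the closest edge of the peak, and gaps between regions from edge to edge over 2558 distinct regions. Windows were 300 kb. The gap and count functions were tested on simulated regions. Symbols were matched, on the same chromosome, to RefSeq (GRCm38.p6), which gave names and gene order only, apart from the printed windows. Python 3.11.15 and pandas 2.3.3 were used. No test was run, since there is 1 library per antibody. The genes named are the 4 genes, genes of peaks around them, adjacent genes and listed imprinted genes. The members and lists were chosen with earlier results of these data known. Alternatives were the point on the peak, the window, wider peaks only, distance limits and symbol matching.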

Additional observations from a re-analysis of the deposited data

How the results depend on the processing

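No paired analysis was possible because there is 1 library per antibody and no result comes from a test. No library could be left out. Taken to the midpoint of the peak, the gap to the gene start was 5.71 kb for Kcnk9, 7.93 kb for Dlk1, 143 kb for Ppp1r9a and 14.5 kb for Mkrn3. The deposited distance, which runs to the lower coordinate, was 6.96, 8.76 and 15.0 kb in size for Kcnk9, Dlk1 and Mkrn3. The deposited shortest distance to either gene end was 119 kb for Ppp1r9a and 12.3 kb for Mkrn3. With a window of 1 Mb there were other peaks near Kcnk9 (1), Dlk1 (3) and Ppp1r9a (2), and counted over 300 kb from the gene edges 1 near Ppp1r9a, since these windows are larger. Among peaks of the same chromosome, 95.7% were narrower than that of Kcnk9, 68.0% than that of Dlk1 and 48.2% than that of Ppp1r9a. Imprinted protein-coding genes with a peak numbered 2 within 10 kb of the gene start (Dlk1 and Kcnk9; 1.8% of all protein-coding genes), because fewer peaks enter. They were 6 with peaks wider than the median (3.22% of all protein-coding genes), 8 within 100 kb (5.21%) and 9 with symbols matched on any chromosome (6.19%). Peaks of unknown depth allow no statement on weaker macroH2A1 at the imprinted genes without a peak. The list also allows none on peaks narrower than 1051 bp, its smallest width.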
